A study of Mus musculus with 12 samples.

Results

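The pyruvate dehydrogenase genes described here are Pdk1, Pdk2, Pdk3, Pdk4, Pdp1, Pdp2, Pdhb, Dlat and Pdhx, 9 of the 19938 genes measured by rows of the array table that carry a single gene symbol. They were chosen by name, as kinases, phosphatases and subunits of 1 complex, with earlier results of these data known. Counts over them are therefore descriptions. Each was read by 1 row of the table, so no choice between rows was needed. The control group was 6 fed male C57BL/6J mice given an adenovirus carrying GFP, a fluorescent protein, and the other group was 6 such mice given an adenovirus carrying ChREBP, the glucose-responsive transcription factor encoded by Mlxipl. Both viruses had been injected into the tail vein, and livers were taken in the fed state 3 weeks later. The labels give the age as 8 weeks, without saying whether that is the age at injection. The sources used here do not give the promoter, species or isoform of the ChREBP construct. Animals of both groups carried an adenovirus, so uninfected liver is not part of the comparison.

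The pyruvate dehydrogenase complex of the mitochondrial matrix turns pyruvate into acetyl-CoA and so joins glycolysis to the tricarboxylic acid cycle and to fatty acid synthesis. Pyruvate dehydrogenase kinases, encoded by the Pdk genes, phosphorylate the E1 component and switch the complex off, and phosphatases, encoded by Pdp1 and Pdp2, remove the phosphate and switch it on. In liver, Pdk4 is known for its induction by fasting and fatty acids, through which carbon from pyruvate is spared. Transcript levels do not report the phosphorylation state or the activity of the complex.

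Promoter sequences of members are shown because ChREBP binds DNA at paired, often imperfect E-boxes, so that a reader can see which upstream windows hold the E-box letters. RefSeq windows on GRCm38.p6 were found for 8 of the 9 members, 10 windows in all. Pdp1 was not matched. The 250 bases before each start were searched on both strands. The E-box CACGTG was found in 6.02% of the 32851 windows of that length. Among the members, CACGTG lay in 1 window of Pdk2, 126 bases before the start, and in that of Pdp2, 219 bases before the start. The Pdk4 window did not hold these letters, and of the motifs searched only GCGTG, a hypoxia response core found in 28.2% of windows, lay there, 71 bases before the start. One Pdk1 window held the same letters 78 bases before the start, and the windows of Pdk3, Pdhb and Pdhx held them on either strand too, so that 5 of the 8 matched members did. The sequences below are 5′ to 3′ on the strand of the gene, with capitals marking CACGTG in Pdk2 and Pdp2 and GCGTG in Pdk4 and Pdk1. Pdk4 lies at chr6:5496279-5496528 on the minus strand, Pdk1 at chr2:71872974-71873223 on the plus strand, Pdk2 at chr11:95041372-95041621 on the minus strand and Pdp2 at chr8:104591222-104591471 on the plus strand.
Pdk4: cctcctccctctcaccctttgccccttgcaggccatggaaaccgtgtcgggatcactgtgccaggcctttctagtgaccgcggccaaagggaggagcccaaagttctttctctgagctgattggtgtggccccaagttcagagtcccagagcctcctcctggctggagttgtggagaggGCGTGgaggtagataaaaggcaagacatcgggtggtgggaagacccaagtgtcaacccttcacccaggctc
Pdk1: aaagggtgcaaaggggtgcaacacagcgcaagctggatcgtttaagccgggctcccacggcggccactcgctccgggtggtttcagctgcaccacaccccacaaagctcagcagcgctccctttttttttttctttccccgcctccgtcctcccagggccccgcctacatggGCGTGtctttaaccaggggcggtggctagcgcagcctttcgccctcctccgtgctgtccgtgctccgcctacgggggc
Pdk2: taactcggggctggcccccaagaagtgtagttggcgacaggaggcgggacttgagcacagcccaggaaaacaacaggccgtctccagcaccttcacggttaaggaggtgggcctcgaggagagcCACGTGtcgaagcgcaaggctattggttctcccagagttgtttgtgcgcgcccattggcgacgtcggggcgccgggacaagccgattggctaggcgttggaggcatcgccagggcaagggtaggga
Pdp2: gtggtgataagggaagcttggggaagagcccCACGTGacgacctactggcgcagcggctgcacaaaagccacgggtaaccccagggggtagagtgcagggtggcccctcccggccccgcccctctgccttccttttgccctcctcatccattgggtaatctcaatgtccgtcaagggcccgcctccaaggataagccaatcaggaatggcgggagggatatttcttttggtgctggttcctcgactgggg

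The core ACGTG, which the E-box contains, occurred in 16.6% of all windows. Among the members it lay in the Pdk2, Pdp2, Pdk3 and Pdhb windows. The PPAR direct repeat, a pair of AGGTCA copies 1 base apart found in 0.0335% of windows, the estrogen-related receptor site AAGGTCA (4.08%) and the forkhead site GTAAACA (3.17%) were in none of the 10 member windows. A match of letters describes the window only.

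Of the 9 members, 5 were higher in ChREBP livers (Pdk1, Pdk3, Pdk4, Pdhb and Dlat), 0 were lower and 4 did not pass the test (Pdk2, Pdp1, Pdp2 and Pdhx). The test was limma with Benjamini-Hochberg adjustment over all 19938 genes and a threshold of 0.05, at which 27.0% of all genes were called, 13.3% higher and 13.7% lower. The median difference over the 9 members was 0.28 on the log2 scale, against -0.04 over all genes. On the 5 called genes every ChREBP array lay above every GFP array, a separation seen for 8.33% of all genes in that direction and 15.2% in either. A second rule asked for a 1.5-fold change and an unadjusted p under 0.05. It was met by 5.70% of all genes, 4.10% in the higher direction, and among the members by Pdk4 only. Each liver is a mixture of cells, and in such samples fewer cells of a type and less RNA per cell cannot be told apart.

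**Figure D1:**
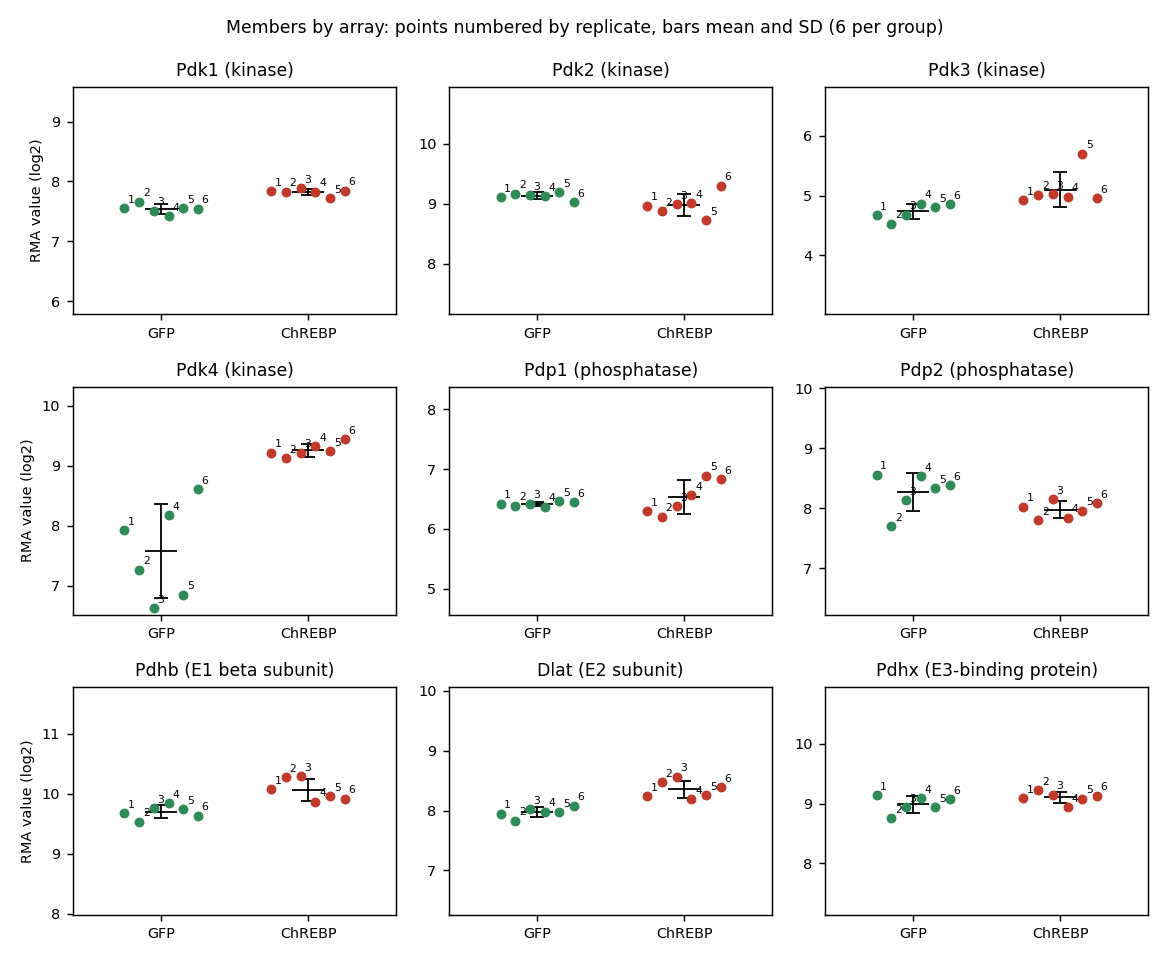
RMA values (log2) of the 9 members on each array, with GFP in green and ChREBP in red, points numbered by replicate and bars giving the mean and SD of 6 arrays. Every panel spans the same number of log2 units. Pdk4 shows the widest gap, from a GFP mean of 7.58 to a ChREBP mean of 9.26, while Pdk2, Pdp1, Pdp2 and Pdhx overlap between groups.

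Array values and marker genes were checked before these results were read. Array medians ran from 5.96 to 6.05, and the hepatocyte transcript Alb was at 12.98 or above on all 12 arrays. Mlxipl ran from 9.07 to 9.61 in GFP and from 10.74 to 10.96 in ChREBP livers, and the array cannot separate the delivered transcript from that of the mouse gene. Some arrays carried transcripts of other tissues. The summed level of 6 pancreatic acinar genes, the log2 of their added linear values, ran from 8.59 to 8.81 in GFP and from 8.44 to 14.84 in ChREBP livers, highest on ChREBP 4 and ChREBP 5. That of 8 muscle genes, 0 of which were called, ran from 9.03 to 12.29 in GFP and from 9.02 to 13.04 in ChREBP livers, highest on GFP 6 and ChREBP 6. Adipoq, an adipocyte hormone gene, was at 8.52 on GFP 4, 8.32 on GFP 6 and 9.02 on ChREBP 6. Of 7 hepatocyte markers 6 were lower in ChREBP livers, and 5 of 5 cycling genes and 6 of 7 T and NK cell genes were higher. Of 8 macrophage genes 5 were higher and 1 was lower. Over all genes, 13.3% were higher and 13.7% lower. The part of these cells and tissues in the differences below was not tested.

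Pdk4 encodes the kinase known for induction in fasting. Its RMA value was 6.62 at the lowest, 7.60 at the median and 8.61 at the highest in GFP livers, and 9.13, 9.23 and 9.44 in ChREBP livers. The groups did not overlap, and the GFP arrays fell apart, with replicates 1, 4 and 6 at 7.93, 8.18 and 8.61 and replicates 2, 3 and 5 at 7.27 or lower. The mean rose from 7.58 ± 0.79 to 9.26 ± 0.11 (SD, n = 6 each). The rise was 1.69 on the log2 scale (SE 0.28, 95% interval 1.09 to 2.29), or 3.22-fold, with an adjusted p of 0.000436 by limma. The exact two-sided permutation test over every assignment of the arrays gave p = 0.00216, the smallest it can give with 6 against 6. Among the 19938 genes it had the rise of rank 119. The range across arrays was 1.99 log2 units in GFP and 0.32 in ChREBP livers.

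Muscle and fat also express Pdk4. The summed level of the muscle genes was highest on GFP 6 and ChREBP 6, and the adipocyte gene Adipoq was high on GFP 4, GFP 6 and ChREBP 6. Without GFP 6 and ChREBP 6 the difference was 1.86 (adjusted p = 0.000168 by limma), and without GFP 4 as well it was 2.06 (adjusted p = 4.6e-05). GFP 6 and GFP 4 were the GFP arrays with the highest Pdk4, so leaving them out widened the gap by construction. The part of these tissues in the difference was not tested. Of the 7 adipocyte markers measured, 2 were higher in ChREBP livers, Lpl (difference 1.35) for lipoprotein lipase and Fabp4 (1.37) for a fatty acid binding protein, and 2 were lower, Car3 (-0.52) and Plin1 (-0.22). Their summed level ran from 12.67 to 13.04 in GFP and from 12.58 to 12.94 in ChREBP livers. Across the 12 arrays, the deviation of Pdk4 from its group mean correlated with that of Lpl at 0.90, of Fabp4 at 0.76 and of Adipoq at 0.62. These values are descriptions, with both genes read from the same RNA sample on each array. For the other adipocyte markers measured, the correlation was 0.42 with Retn, 0.25 with Lep, -0.002 with Car3 and -0.11 with Plin1. For the 8 muscle genes it was 0.31 (Ckm) to 0.61 (Myh4).

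**Figure D2:**
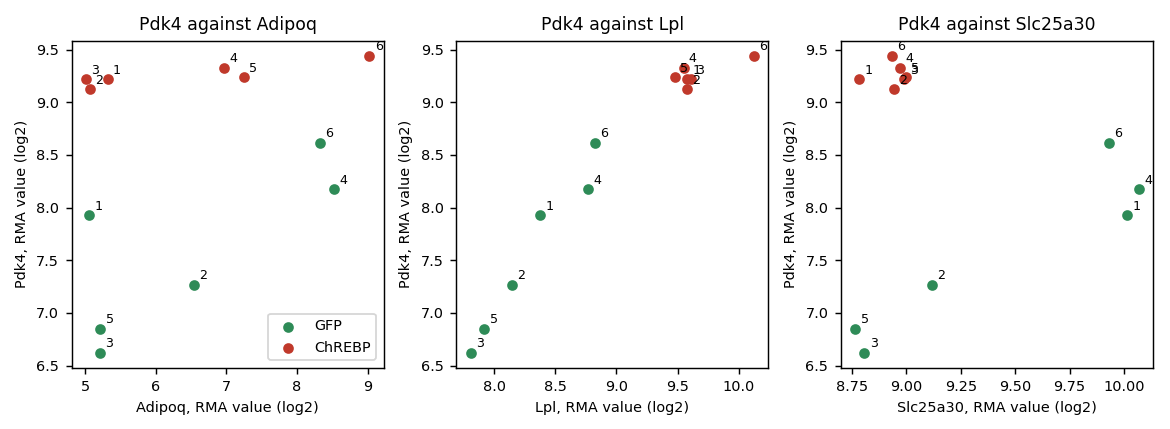
Pdk4 RMA value (log2, vertical axis) against that of Adipoq, Lpl and Slc25a30 (log2, horizontal axes), 1 point per array, numbered by replicate, GFP in green and ChREBP in red. GFP arrays spread over 1.99 log2 units of Pdk4, and ChREBP arrays lie above them within 0.32 units at any level of Adipoq or Slc25a30.

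The genes whose deviations from the group means were most like those of Pdk4, of 9968 genes brighter than the median, were Hspb1 (r = 0.93), a small heat shock protein gene, Slc35a4 (r = 0.93) and Slc25a30 (r = 0.92), the last 2 from solute carrier families, over 12 arrays. In all 3, GFP replicates 1, 4 and 6 were the highest GFP arrays and the ChREBP arrays lay close together, a likeness to Pdk4 that the choice of these genes fixed. Slc35a4 was higher in ChREBP livers, by 0.76 (adjusted p = 1.71e-05 by limma), with 7.58 to 8.10 in GFP and 8.59 to 8.66 in ChREBP livers. Hspb1 differed by -0.54 (adjusted p = 0.0861) and Slc25a30 by -0.51 (adjusted p = 0.101), and neither passed. For these, the ChREBP arrays lay with the low GFP arrays. Hspb1 was 8.04 to 8.25 on GFP 2, 3 and 5 and 7.99 to 8.24 on the ChREBP arrays.

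Pdk1 encodes the kinase known as a target of hypoxia-inducible factor. GFP livers had RMA values of 7.42, 7.55 and 7.66 (lowest, median, highest), and ChREBP livers had 7.73, 7.83 and 7.88. The groups did not overlap, and 5 of the ChREBP arrays lay between 7.83 and 7.88. The mean rose from 7.54 ± 0.08 to 7.82 ± 0.05 (SD, n = 6 each), by 0.28 (SE 0.05, 95% interval 0.18 to 0.38), with an adjusted p of 0.00039 by limma. At 1.22-fold the change was small in size, with an adjusted p close to that of Pdk4.

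Pdk3 encodes a kinase that is scarce in liver. Its RMA value was 4.53, 4.75 and 4.86 in GFP livers and 4.92, 5.00 and 5.70 in ChREBP livers (lowest, median, highest). The groups did not overlap, but the lowest ChREBP array was 4.92 against a highest GFP array of 4.86, and ChREBP 5 stood apart from the other ChREBP arrays, which lay at 5.03 or lower. The mean rose from 4.73 ± 0.13 to 5.10 ± 0.29 (SD, n = 6 each), by 0.36 (SE 0.12, 95% interval 0.11 to 0.62), or 1.29-fold, with an adjusted p of 0.0333 by limma. The mean value over all arrays lay at percentile 20.5 of all genes, and no detection calls were used, so a level above background is not established. ChREBP 5 also had the endothelial gene Pecam1 at 9.57, where the other 11 arrays reached 8.27, the macrophage gene Lyz2 at 11.56 and the bile duct gene Krt7 at 8.55. Of 6 endothelial markers 1 was called, and their summed level ran from 11.08 to 11.23 in GFP and from 10.88 to 11.79 in ChREBP livers. Within groups, the deviation of Pdk3 correlated with those of Pecam1 at 0.88, Cdh5 at 0.85, Lyve1 at 0.73 and Kdr at 0.42. It correlated with those of Stab2 at -0.70 and Clec4g at -0.76. For macrophage markers it was 0.85 with Lyz2, and from -0.50 (Gpnmb) to -0.02 (Trem2) with the others. For bile duct markers it was 0.90 with Krt7, 0.59 with Epcam, 0.53 with Krt19 and -0.41 with Sox9. For T and NK cell markers it was 0.79 with Cd3g, 0.79 with Gzma, 0.66 with Klrd1 and 0.52 with Nkg7. It was -0.13 with Cd3e, -0.32 with Cd8a and -0.34 with Prf1. For the 6 acinar genes it was 0.53 (Cpb1) to 0.56 (Prss2), and for hepatocyte markers -0.75 (Cps1) to -0.07 (Cyp2e1). The part of these cells was not tested. Without ChREBP 5 the Pdk3 difference was 0.25 (adjusted p = 0.0104). The call was lost without GFP 1 (0.35, adjusted p = 0.0613), GFP 2 (0.32, adjusted p = 0.0692) or GFP 3 (0.35, adjusted p = 0.0611).

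Pdk2 encodes a kinase that is widely expressed and abundant in liver. Pdk2 was measured at 9.03, 9.14 and 9.20 in GFP livers and 8.72, 8.98 and 9.30 in ChREBP livers (lowest, median, highest). Of the ChREBP arrays, 5 lay below every GFP array, and ChREBP 6 lay above every GFP array. The difference was -0.15 (SE 0.08, 95% interval -0.32 to 0.01) and did not pass, with an adjusted p of 0.158 by limma and an exact two-sided permutation p of 0.0844. Without ChREBP 6 it passed, at -0.22 (adjusted p = 0.0155), and also without GFP 6 and ChREBP 6, at -0.24 (adjusted p = 0.0132). The difference was smaller without ChREBP 5, at -0.10 (adjusted p = 0.305), and without ChREBP 4 and ChREBP 5, at -0.096 (adjusted p = 0.369). ChREBP 6 was the highest and ChREBP 5 the lowest ChREBP array, so leaving either out moved the difference by construction. On ChREBP 6 the muscle gene Tnnt3 was at 12.08. On GFP 6, the GFP array with the highest summed muscle level, Pdk2 was the lowest of its group, at 9.03. Within groups, the deviation of Pdk2 correlated with those of the 8 muscle genes at -0.16 (Myh4) to 0.60 (Mb). With those of the 7 hepatocyte markers measured, it correlated at 0.14 (Hnf4a) to 0.83 (Tat), with Cps1 at 0.77. The part of muscle or of hepatocytes in the Pdk2 values was not tested.

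The 4 kinase genes moved by different amounts. Their log ratios were taken within each array and compared between groups by exact two-sided permutation tests, adjusted over 10 pairs of members in all (the pairs were chosen after the data had been seen). Pdk4 shifted upward against Pdk1 by 1.40 (SE 0.33, adjusted p = 0.00541, exact test), against Pdk3 by 1.32 (SE 0.33, adjusted p = 0.00866, exact test) and against Pdk2 by 1.84 (SE 0.34, adjusted p = 0.00541, exact test). Pdk1 shifted against Pdk2 by 0.44 (SE 0.07, adjusted p = 0.00541, exact test), and so did Pdk3, by 0.52 (SE 0.19, adjusted p = 0.00928, exact test). Pdk1 against Pdk3 shifted by -0.08 (SE 0.16, adjusted p = 0.82, exact test), a difference not resolved at this spread. The shifts of Pdk4 and Pdk1 against Pdk2 and of Pdk4 against Pdk1 show unequal change and not that any kinase was unchanged. Ratios with Pdk3 carry its limit, since a level above background is not established for it and a row near background can understate change.

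The phosphatases act against the kinases, and neither passed. Pdp1 encodes the calcium-stimulated form. In RMA values, it was at 6.37, 6.42 and 6.46 in GFP livers and 6.21, 6.47 and 6.89 in ChREBP livers (lowest, median, highest). The ChREBP arrays lay on both sides of the GFP arrays, 3 above all of them and 2 below all of them. The difference was 0.11 (SE 0.10, 95% interval -0.11 to 0.34), with an adjusted p of 0.458 by limma. The arrays above the GFP range were ChREBP 4, 5 and 6, on which transcripts of other tissues were high, and the spread was 0.03 (SD) in GFP and 0.28 in ChREBP livers. On GFP 4 and GFP 6, the GFP arrays where Adipoq was high, Pdp1 was at 6.37 and 6.44. The part of these transcripts in the Pdp1 values was not tested.

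Pdp2 encodes the phosphatase isoform known for its presence in liver and its response to insulin. The RMA values were 7.70, 8.35 and 8.56 in GFP livers and 7.80, 7.99 and 8.15 in ChREBP livers (lowest, median, highest). All ChREBP arrays lay below the GFP mean of 8.27, and GFP 2, at 7.70, lay below all of them. The difference was -0.30 (SE 0.13, 95% interval -0.57 to -0.03). It had an unadjusted p of 0.0339 and did not pass after adjustment (adjusted p = 0.0972 by limma). Without GFP 2 it passed, at -0.41 (adjusted p = 0.00332). GFP 2 was the lowest GFP array, so leaving it out widened the difference by construction. The within-array ratio of Pdp1 to Pdp2 shifted by 0.41 (SE 0.17, adjusted p = 0.0541, exact permutation test), which did not pass.

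The catalytic core is built of E1, a heterotetramer of alpha and beta chains that decarboxylates pyruvate, E2, which passes the acetyl group to coenzyme A, and E3, which reoxidises the lipoyl arm. Pdhb encodes the E1 beta chain. Its RMA value was 9.54, 9.71 and 9.85 in GFP livers and 9.87, 10.02 and 10.30 in ChREBP livers (lowest, median, highest). The groups did not overlap, though ChREBP 4, the lowest of its group, lay close to GFP 4, the highest of the other. The mean rose from 9.70 ± 0.11 to 10.06 ± 0.18 (SD, n = 6 each), by 0.37 (SE 0.08, 95% interval 0.19 to 0.54), or 1.29-fold, with an adjusted p of 0.00403 by limma.

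Dlat encodes E2, the acetyltransferase at the centre of the complex. Measured RMA values were 7.83, 7.98 and 8.08 in GFP livers and 8.19, 8.32 and 8.56 in ChREBP livers (lowest, median, highest). The groups did not overlap, and the highest ChREBP arrays, replicates 2 and 3, were also the highest for Pdhb. The mean rose from 7.97 ± 0.08 to 8.35 ± 0.15 (SD, n = 6 each), by 0.38 (SE 0.07, 95% interval 0.23 to 0.53), or 1.30-fold, with an adjusted p of 0.000802 by limma. Without ChREBP 4 and ChREBP 5, the arrays with acinar transcripts, the difference was 0.44 for Dlat (adjusted p = 0.000548) and 0.44 for Pdhb (adjusted p = 0.00189). Both arrays lay below the ChREBP mean of each gene, so leaving them out widened the differences by construction. The part of acinar transcripts in the differences was not tested.

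Pdhx encodes the protein that anchors E3 to the E2 core. RMA values of Pdhx were 8.76, 9.01 and 9.14 in GFP livers and 8.94, 9.11 and 9.22 in ChREBP livers (lowest, median, highest). The groups overlapped, with 2 of 6 ChREBP arrays above the highest GFP array. The difference was 0.11 (SE 0.07, 95% interval -0.03 to 0.26), with an adjusted p of 0.231 by limma. Within arrays, Pdhx lagged behind Dlat and Pdhb, the other subunit genes among the members. The ratio of Dlat to Pdhx shifted by 0.27 (SE 0.06, adjusted p = 0.00541, exact permutation test) and that of Pdhb to Pdhx by 0.25 (SE 0.07, adjusted p = 0.00928, exact permutation test). The ratio of Dlat to Pdhb shifted by 0.01 (SE 0.06, adjusted p = 0.827, exact permutation test). Within groups, the deviations of Pdhb and Dlat correlated at 0.73 over 12 arrays, and those of Pdhx and Pdp2 at 0.77, as a description. Over the 5 cycling genes, such correlations ran from 0.25 to 0.90 for Dlat (highest with Mki67), from 0.36 to 0.76 for Pdhb (highest with Rrm2) and from 0.47 to 0.76 for Pdhx (highest with Top2a). All 5 cycling genes were higher in ChREBP livers, and their part in the subunit differences was not tested.

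The other genes of the core and of its lipoylation numbered 7. Of these 1 was higher, Pdha1, which encodes the somatic E1 alpha chain that the kinases phosphorylate, and 1 was lower, Lipt1, which encodes a lipoyl transferase. Pdha1 ran from 9.46 to 9.73 in GFP and from 10.10 to 10.30 in ChREBP livers, without overlap, a difference of 0.60 (SE 0.06, adjusted p = 3.49e-06 by limma). Lipt1 differed by -0.38 (adjusted p = 0.00305), with overlapping groups. Dld, which encodes E3 and is shared with sister complexes, differed by -0.10 (adjusted p = 0.129) and did not pass. So both E1 chains and E2 were higher, while no call was made for the E3 gene or its binding protein.

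**Figure D3:**
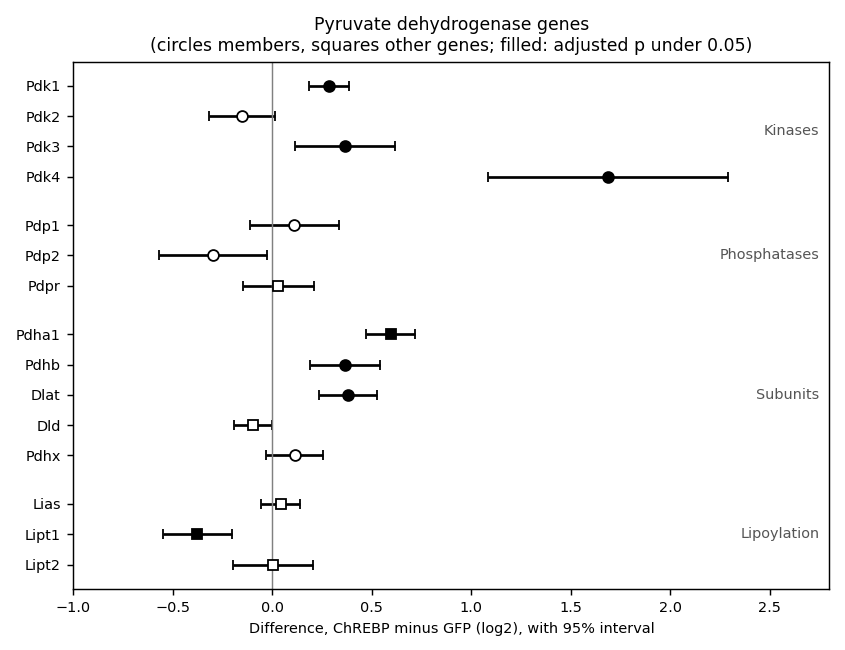
Difference between ChREBP and GFP livers on the log2 scale with its 95% interval, for the 9 members (circles) and other genes of the complex (squares), filled where the adjusted p was under 0.05. The Pdk4 point, at 1.69, lies to the right of all others, and the E1 and E2 genes Pdha1, Pdhb and Dlat lie between 0.37 and 0.60.

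Around the complex, 42 of 78 measured genes of 8 lists passed (53.8%), 33 higher and 9 lower, against 27.0% of all genes. Among 11 genes of pyruvate supply and use 8 were higher, with Pkm (difference 1.23) and Pklr (0.96) for pyruvate kinases, Me1 (1.11) for malic enzyme and Pcx (0.61) for pyruvate carboxylase, which takes pyruvate to oxaloacetate. The fall was in Gpt (-0.39), an alanine aminotransferase gene. Mpc1 (0.27), which encodes a subunit of the mitochondrial pyruvate carrier upstream of the complex, was among those higher. Gpt2 (0.24) was another, and lost its call in 3 of 25 alternatives. The median over this list was 0.53.

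Downstream of the complex, 4 of 6 genes of acetyl-CoA export and buffering were higher and 0 were lower. These were Acly (1.02), the ATP citrate lyase gene, Crat (1.00), the carnitine acetyltransferase gene, Slc25a1 (0.49), the citrate carrier gene, and Slc25a20 (0.19), the carnitine carrier gene. Of 16 tricarboxylic acid cycle genes 5 were higher, Idh3g (0.36), Mdh2 (0.35), Idh2 (0.28), Cs (0.27) for citrate synthase and Suclg2 (0.22), and 2 were lower, Fh1 (-0.27) for fumarase and Idh3b (-0.17). The median over the cycle genes was 0.08. Idh3b lost its call in 4 of 25 alternatives, among them leaving out GFP 1. Slc25a20 lost it in 3 of 25, with median centring, without GFP 6 and ChREBP 6, and without GFP 4 as well. Idh2 lost it in 1 of 25, without GFP 4, GFP 6 and ChREBP 6. Idh3a, not called at 0.23 (adjusted p = 0.0576 by limma), passed in 8 of 25.

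The branched chain dehydrogenase is a sister complex with a kinase and a phosphatase of its own. Its kinase gene Bckdk was higher by 0.58 (SE 0.07, adjusted p = 1.46e-05 by limma), with 6.61 to 7.01 in GFP and 7.33 to 7.49 in ChREBP livers. Its phosphatase gene Ppm1k was lower by -0.48 (SE 0.11, adjusted p = 0.00558), and its E2 gene Dbt was lower by -0.63 (SE 0.08, adjusted p = 4.21e-05). The E1 genes Bckdha (-0.01) and Bckdhb (0.11) did not pass. In both complexes a kinase gene was higher, but E2 was higher in one and lower in the other, as Dlat (0.38) and Dbt (-0.63) stood side by side.

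Of 12 known regulators of Pdk transcription 3 were higher and 1 was lower, a count that includes the delivered gene Mlxipl and is read against 27.0% of all genes called. Mlxipl (1.57) and the lipid-responsive receptor gene Pparg (1.21) were higher without overlap, and Hif1a (0.22) was higher, but lost its call without GFP 6 and ChREBP 6 and without GFP 4 as well. The glucocorticoid receptor gene Nr3c1 (-0.35) was lower. Ppara (0.00), Ppargc1a (-0.18), Foxo1 (-0.07) and Esrra (-0.10), whose products are known to act on Pdk4, did not pass. Without GFP 4, GFP 6 and ChREBP 6, Ppargc1a passed at -0.42 (adjusted p = 0.00691 by limma). Of 10 other targets of PPARalpha 6 were higher, with Vnn1 (1.98), Cyp4a14 (1.51), Fgf21 (0.95) and Plin2 (0.47) among them, and Creb3l3 (-0.35) was lower. The other 3, Cpt1a (0.03), Acot1 (0.26) and Angptl4 (-0.24), did not pass. Angptl4 passed as lower in 4 of 25 alternatives. Of 12 other targets of HIF1alpha 6 were higher, with Hk2 (2.07), Aldoa (0.96), Ankrd37 (0.64) and Ndrg1 (0.39) among them, and Ero1a (-0.25) was lower. The other 5, Pgk1 (0.09), Bnip3 (-0.02), Vegfa (-0.11), Car9 (-0.12) and Egln3 (-0.14), did not pass. Pgk1 passed in 4 of 25 alternatives and Vegfa in 2 of 25. Pdk4 and Pdk1, placed beside these lists, differed by 1.69 and 0.28. These lists were drawn up with results of these data known, so their counts are descriptions.

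**Figure D4:**
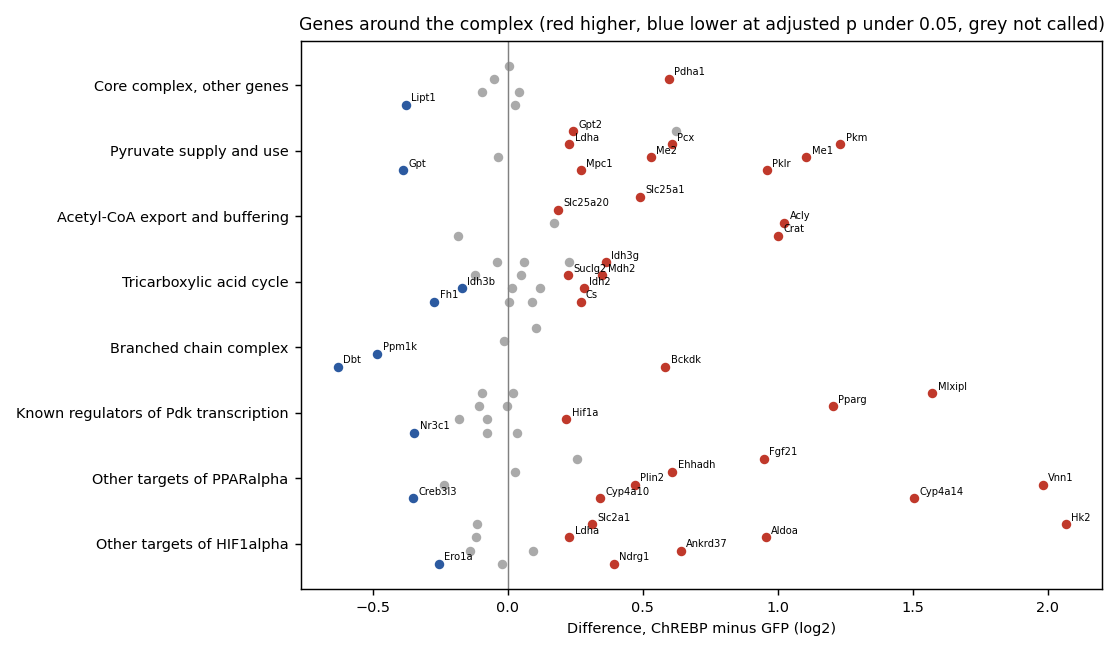
Difference between ChREBP and GFP livers (log2, horizontal axis) for the genes of 8 lists around the complex, 1 point per gene, red where higher and blue where lower at an adjusted p under 0.05, grey otherwise. Vertical offsets within a list only separate the points. Red points outnumber blue ones, 33 to 9 with each gene counted once.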

How the data were processed

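Total RNA of whole liver from 12 mice, 6 per virus, had been amplified, biotin-labelled and hybridised by the authors to Affymetrix mouse gene arrays, 1 array per sample. The deposited values are log2 values. According to the submitters' processing notes they came from RMA and Partek, for which no version is named. Background correction, quantile normalization and probe summary by RMA leave the arrays with like distributions. The array methods of the study describe another array and were taken as a guide to the test only. Probe intensities, detection calls and scan dates were not used here, so no array batch was tested. The number of arrays limits the precision.

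Of 35556 rows, 21789 carried 1 symbol in the platform annotation, 1621 several and 12146 none listed. Symbols were updated through Entrez IDs for 21698 rows (RefSeq, GRCm38.p6, names only). The brightest row per gene was kept, 19938 genes in all, without a filter on dim genes. Differences (ChREBP minus GFP) were fitted in R 4.3.3 by limma 3.58.1 (lmFit, then eBayes, two-sided, without covariates) and adjusted by Benjamini-Hochberg over all genes, and a gene was called at an adjusted p under 0.05. Intervals are 95% and come from the same fit. Exact permutation tests used every assignment of 12 arrays to groups of 6. The labels call the samples biological replicates, and groups came from the sample titles. The procedure was tested on simulated data.

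All 9 members were named, and of each list up to 4 genes with the smallest p plus those completing a count of 5 or fewer. Other genes were named after their values had been seen (Dld, Gpt2, Idh3a, Bckdha, Bckdhb, Mpc1, Cpt1a, Acot1, Angptl4, Ppara, Ppargc1a, Foxo1, Esrra, Pgk1, Bnip3, Vegfa, Car9 and Egln3). The members and lists were chosen with earlier results of these data known. Promoter windows came from RefSeq (GRCm38.p6), 250 bases before each start. Results were recomputed with median centring, a second quantile normalization, the 25% dimmest genes left out, the mean of a gene's rows, all rows tested, trended and robust moderation, the replicate number as a block, array weights, analysis of variance, and each array or sets of arrays left out. Leaving out GFP 6 and ChREBP 6 together, and the ratios of member pairs, were added after seeing the data.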

Additional observations from a re-analysis of the deposited data

Results flagged for a closer look

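Chance marks about 1 in 20 groups as holding an array far from the others, and 18 groups of 6 arrays were examined, 2 for each member. ChREBP 5 was marked in 2 of them. For Pdk3 it lay at 5.70, with the nearest ChREBP array at 5.03, a gap that made up 0.87 of the range of the group. For Pdk1 it lay at 7.73, with the nearest at 7.83, a gap of 0.637 of the range, where 0.625 is the critical value for 6 samples. The Pdk3 difference was 0.25 (adjusted p = 0.0104 by limma) and the Pdk1 difference 0.30 (adjusted p = 0.000354) without this array.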

How the results depend on the processing

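Differences of Pdk1, Pdk4, Pdhb and Dlat passed under all 25 alternatives, and those of Pdp1 and Pdhx under none of the 25. Pdk3 passed under 19 of 24, and could not be tested where the 25% dimmest genes were left out. Its difference was 0.36 with all rows tested (adjusted p = 0.0583) and 0.36 under analysis of variance (adjusted p = 0.0677). Pdk2, not called, passed at -0.24 without GFP 4, GFP 6 and ChREBP 6 and at -0.24 without GFP 6 and ChREBP 6. Pdp2, not called, passed at -0.35 with quantile normalization repeated and at -0.31 with array weights. With 1 array left out at a time, values ran from 0.26 to 0.31 for Pdk1, -0.22 to -0.10 for Pdk2, 0.25 to 0.40 for Pdk3, 1.498 to 1.896 for Pdk4, 0.04 to 0.17 for Pdp1, -0.41 to -0.24 for Pdp2, 0.32 to 0.41 for Pdhb, 0.34 to 0.41 for Dlat and 0.07 to 0.14 for Pdhx. Members called numbered 4 to 6, genes around the complex 39 to 45 and all genes 4123 to 5844. No member changed direction. Of the member pairs, 2 that did not pass changed sign. The ratio of Pdk1 to Pdk3 shifted by 0.063 without ChREBP 4 and ChREBP 5 and by -0.131 to 0.058 with 1 array left out at a time, positive without ChREBP 5, and that of Dlat to Pdhb by -0.054 with quantile normalization repeated, by -0.016 without GFP 4, GFP 6 and ChREBP 6 and by -0.023 to 0.047 with 1 array left out at a time, negative without GFP 4 or ChREBP 6. The ratio of Pdp1 to Pdp2 passed under 4 of 17 alternatives, as without GFP 2. The cause was not tested. Deviations from the group means, over all genes, were correlated between the GFP and the ChREBP sample of each replicate number. These correlations ran from -0.06 to 0.25, above 0.1 for 1 of 6 pairs. By this measure 1 of 6 GFP samples correlated best with the ChREBP sample of its own number, so the numbers were not taken to pair the samples. With the replicate number as a block, 4439 genes, 5 members and 41 genes around the complex were called, with Pdk4 at 1.69 (adjusted p = 0.000674), Pdk3 at 0.36 (adjusted p = 0.0287) and Pdp2 at -0.30 (adjusted p = 0.0721). The block ended no member's call. Pdk3 lay among the 25% dimmest genes, where signal over background limits what can be read.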
